A study of Mus musculus with 10 samples.

Results

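A set of 9 genes of cytotoxic lymphocytes was followed through 10 RNA-seq libraries of mouse regulatory T cells (Tregs): the granule genes Gzmb, Gzma, Gzmk, Prf1 and Nkg7, and the chemokine genes Ccl5, Ccl3, Ccl4 and Xcl1. They were taken by symbol, and all 9 were found among the 23992 gene symbols of the files, each with 1 transcript row. The study measured RNA in 4 groups of libraries from C57BL/6J mice. In the first pair of groups, wild-type natural Tregs (nTregs) of spleen were cultured for 24 h with anti-CD3 and anti-CD28 antibodies, which stimulate the T cell receptor and its costimulator (the TCR group, n = 2), or with the same antibodies and the cytokine TSLP (the TSLP group, n = 2). In the second pair, Tregs were isolated from the allergic lung of OVA-immunized (ovalbumin) mice that carried Foxp3YFP-Cre alone (lung control, n = 3) or Foxp3YFP-Cre with Crlf2fl/fl (lung Crlf2-deleted, n = 3). Crlf2 encodes the TSLP receptor chain. Cre was expressed from Foxp3 in both lung groups, so the deletion was directed to Foxp3-expressing cells and the controls carried the same Cre allele. Ages were not given in the labels, and neither was whether replicates of a group were different animals or cultures; p-values therefore describe the scatter of these libraries, part of which may be technical.

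Cytotoxic lymphocytes store granzymes, which are serine proteases, together with the pore-forming protein perforin in secretory granules and release both onto a target cell, where perforin lets the granzymes enter. The same cells secrete chemokines on activation: CCL3, CCL4 and CCL5 attract other leukocytes, and XCL1 attracts dendritic cells that bear XCR1. Tregs can express granzyme B and perforin and can use them to kill effector cells, whereas most of the other genes are better known from natural killer (NK) cells and CD8 T cells.

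The promoters of Gzmb, Prf1, Nkg7 and Xcl1 are shown first, because these 4 genes were still called with TSLP once length and GC trends were removed, the first pair up and the last pair down. Each is the stretch of 250 bases before the gene start used in a table of RefSeq promoters (GRCm38.p6, the build that mm10 names), 5′ to 3′ on the strand of the gene. Of the 9 genes, 7 had an entry in the promoter table, and Ccl4 and Ccl5 did not. Capitals mark exact matches on either strand to motifs of factor families known from cytotoxic genes: RUNX (TGTGGT), AP-1 (TGANTCA), STAT (TTCNNNGAA), T-box (AGGTGT) and a CRE core (TGACGT), none of which overlap here.
Gzmb: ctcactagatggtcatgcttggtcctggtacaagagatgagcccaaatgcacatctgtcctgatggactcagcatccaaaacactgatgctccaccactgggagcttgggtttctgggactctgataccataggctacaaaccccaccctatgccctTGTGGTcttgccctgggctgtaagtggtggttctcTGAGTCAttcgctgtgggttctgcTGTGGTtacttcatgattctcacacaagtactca
Prf1: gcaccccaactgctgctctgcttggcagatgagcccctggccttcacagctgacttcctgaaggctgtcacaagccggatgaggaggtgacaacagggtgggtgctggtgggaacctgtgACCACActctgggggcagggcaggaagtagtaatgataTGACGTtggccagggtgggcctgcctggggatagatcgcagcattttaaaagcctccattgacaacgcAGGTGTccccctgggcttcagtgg
Nkg7: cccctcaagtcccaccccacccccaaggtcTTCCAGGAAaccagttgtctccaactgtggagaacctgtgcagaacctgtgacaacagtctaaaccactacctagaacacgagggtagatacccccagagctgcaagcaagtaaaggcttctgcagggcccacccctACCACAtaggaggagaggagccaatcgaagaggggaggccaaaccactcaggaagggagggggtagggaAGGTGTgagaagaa
Xcl1: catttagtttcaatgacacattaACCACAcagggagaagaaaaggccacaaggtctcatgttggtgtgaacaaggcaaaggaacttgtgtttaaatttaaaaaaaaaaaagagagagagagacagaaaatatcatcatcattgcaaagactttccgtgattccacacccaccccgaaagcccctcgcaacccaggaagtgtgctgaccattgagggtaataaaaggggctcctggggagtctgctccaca

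The Gzmb window lies at chr14:56262335-56262584 on the minus strand and holds RUNX matches that begin at positions -93 and -34 from the start and an AP-1 match at -58. The Prf1 window, at chr10:61297586-61297835 on the plus strand, holds a RUNX match at -130, the CRE core at -92 and a T-box match at -24. The RefSeq span of Prf1 as a gene begins further upstream, at 61297751, inside this window, so positions hold for the start used in the promoter table. The Nkg7 window, at chr7:43436888-43437137 on the plus strand, holds the only STAT match among the 7 windows, at -220, with a RUNX match at -83 and a T-box match at -14. The Xcl1 window, at chr1:164935523-164935772 on the minus strand, holds a RUNX match at -227. Over the 32851 promoter windows of this length in the table, 14.0% held the RUNX motif, 11.8% the T-box motif, 7.02% the STAT motif, 6.75% the AP-1 motif and 6.47% the CRE core. These letters are a description of the sequence, and no binding was measured.

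Some facts of the series bear on every value given here. Reads per library, summed over 1 row per gene, ranged from 27237313 to 51671901 in the spleen groups and from 1439675 to 18349039 in the lung groups; lung control library 2 had the fewest. RPKM (reads per length of transcript and library size) was deposited by the authors on a library total of which the listed gene reads were 52.9% to 63.8% in spleen and 21.2% to 33.8% in lung, so RPKM levels of spleen and lung are not on the same footing. Treg markers were present throughout: Foxp3 stood at 16.1 to 18.7 RPKM in spleen and at 10.0 to 27.5 RPKM in lung. Crlf2, the targeted gene, checked the lung labels. It stood at 92.8, 146 and 105 CPM (counts scaled to the library's gene reads after TMM normalization) in the control libraries and at 9.06, 6.73 and 3.55 CPM in the Crlf2-deleted libraries (log2 fold change -4.16, standard error 0.36, adjusted p = 0.00465; -4.22 and 0.00173 without control library 3).

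Lung control library 3 stood apart from the other 2 control libraries, and 5 of the 9 genes were among those that set it apart. Its RPKM divided by the mean of control libraries 1 and 2 was 48.1 for Xcl1, 37.6 for Prf1, 31.7 for Ccl3, 28.7 for Ccl4 and 27.2 for Gzma. The ratio was lower for Ccl5 (5.75), Nkg7 (3.75) and Gzmk (1.81), and it was 1.08 for Gzmb. Over all genes tested in lung the median ratio was 1.19, and 1.20% of them reached a ratio of 20. Markers of several other cell types were also higher in that library. The sum of 7 lung epithelium markers lay between the other controls (9625 RPKM against 27766 and 5230 in control libraries 1 and 2). Scgb1a1 made up most of it, at 9405 RPKM against 27531 and 5174. Sftpc was higher than in both (111 against 36.8 and 14.1 RPKM) and Epcam lower than in both (2.33 against 5.1 and 2.72 RPKM). The other markers of this list lay between. In the Crlf2-deleted libraries the epithelial sum was 1160 to 8088 RPKM. The 8 NK cell markers summed to 206 RPKM in control library 3 against 9.28 and 12.8 in control libraries 1 and 2. Tyrobp, which myeloid cells also express, made up 187 RPKM of the sum in control library 3. The other 7 markers, split off after their values were seen, summed to 18.7 against 0.278 and 1.04 RPKM. Among them Ncr1, which defines NK cells, stood at 5.21 against 0.0614 and 0.213 RPKM. The macrophage and monocyte markers (7 of 8 found by symbol) summed to 755 RPKM against 45.5 and 53.3, and the 4 red cell genes to 26510 against 252 and 847. The Treg and T cell markers (7 of 8 in the files) were lower, at 150 RPKM against 204 and 206. The part of these cells in the member values of the library was not tested. In bulk RNA, a change in the share of cells of a type and a change in RNA per cell cannot be told apart. Lung fold changes of the 9 genes and of the other genes called are given with and without this library.

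**Figure D1:**
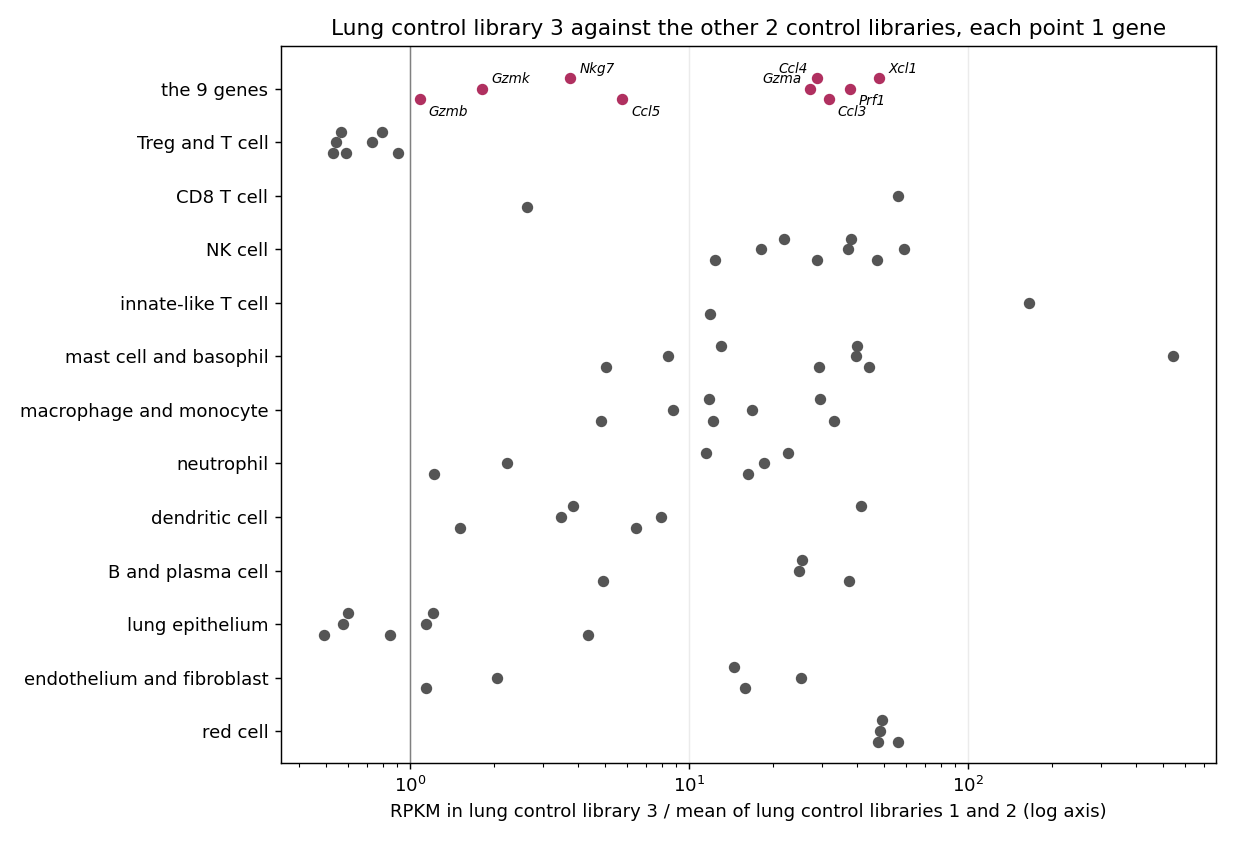
RPKM in lung control library 3 divided by the mean of lung control libraries 1 and 2 (log axis), 1 point per gene, for the 9 genes (red) and for marker lists of cell types (grey). Gzmb lies at 1.08, above each of the Treg and T cell markers (0.528 to 0.904). Xcl1, Prf1, Ccl3, Ccl4 and Gzma lie between 27.2 and 48.1, where NK cell and red cell markers also lie.

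The first comparison asks how TSLP changed TCR-stimulated spleen Tregs. With TSLP, the RNA of the killing proteins Gzmb and Prf1 rose, while that of Nkg7 and Xcl1 fell, and these 4 calls held once library trends on GC and length were taken out. Ccl5, Ccl4 and Ccl3 also fell, by no more than other transcripts as short as theirs, and lost their calls with the length trend removed. Of the 8 genes that passed the filter on low reads, 7 passed the test (edgeR quasi-likelihood test, adjusted p under 0.05), 2 higher and 5 lower with TSLP. The test called 45.8% of all 13214 genes, 22.7% as higher and 23.1% as lower, so a call is common in this comparison. The CPM ranges of the groups stood apart for all 8 tested genes, and for 75.4% of all genes tested.

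Gzmb encodes granzyme B, the protease that cleaves caspases and other proteins after aspartate. It stood at 51.8 and 73.9 CPM with TCR alone and at 109 and 113 CPM in the TSLP libraries. Both TSLP libraries were above both TCR libraries, and the TSLP pair was the tighter of the pairs. The log2 fold change was 0.82 (standard error 0.15, adjusted p = 0.00379), a 1.77-fold rise. Genes within 10% of its transcript length of 1416 bases had a median log2 fold change of -0.24 (841 genes), so Gzmb rose against the drift of transcripts of its size. With the length trend of each library removed, its log2 fold change was 1.03 (standard error 0.13, adjusted p = 0.00162). When all 4 groups shared a fit, Gzmb was the only one of the 9 that passed (log2 fold change 0.87, adjusted p = 0.0205). The spread in that fit also came from the lung libraries. The standard error went from 0.12 to 1.40 for Ccl4, from 0.11 to 0.47 for Nkg7 and from 0.15 to 0.20 for Gzmb. That fit therefore cannot rank the 9 genes by their response to TSLP.

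Prf1 encodes perforin, the pore that lets granzymes into a target cell. Its levels were far lower: 18 and 11 reads with TCR alone and 58 and 95 reads in the TSLP libraries, or 0.697 and 0.439 CPM against 1.55 and 1.68 CPM. Again both TSLP libraries were the higher ones. The log2 fold change was 1.50 (standard error 0.35, adjusted p = 0.00991), a 2.84-fold rise from a low base. The call was lost when either TSLP library was left out (adjusted p = 0.0612 without library 1 and 0.121 without library 2). In RPKM, which is per length, Prf1 reached 0.395 at most in spleen, where Gzmb reached 38.5.

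Gzma encodes granzyme A, a tryptase-like protease, and Gzmk encodes its relative granzyme K. Gzma stood at 13.4 and 15.9 CPM with TCR alone and at 12.9 and 11.9 CPM with TSLP. The pairs nearly touched, and the difference did not pass the test (log2 fold change -0.24, standard error 0.13, adjusted p = 0.168). The value was 0.26 (adjusted p = 0.0842) with the length trend removed and 0.12 (adjusted p = 0.52) by limma on the deposited RPKM, so its direction changed with the setting. Without TCR library 1 it passed as lower (-0.36, adjusted p = 0.00563). Gzmk had 4 and 2 reads with TCR alone and 3 and 2 reads in the TSLP libraries and was not tested. The granzymes thus ranked Gzmb, Gzma and Gzmk by RPKM in all 4 spleen libraries.

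Nkg7 encodes a membrane protein of cytotoxic granules that takes part in their release. It stood at 42.5 and 48.3 CPM with TCR alone and at 18.5 and 18.7 CPM in the TSLP libraries. The TSLP libraries were the lower ones and lay close together. Nkg7 fell, with a log2 fold change of -1.29 (standard error 0.11, adjusted p = 0.000159), so that its level was 2.44-fold higher without TSLP. Genes of its length had a median of -0.67, and with the length trend removed Nkg7 was at -0.74 (standard error 0.09, adjusted p = 0.00156).

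Gzmb and Nkg7, both granule genes, therefore moved apart. Their ratio needs no scaling for library size, but length trends of the libraries can enter it, as the transcripts have 1416 and 813 bases. With the length trend removed, their log2 fold changes with TSLP were 1.03 and -0.74. There were 1.22 and 1.53 Gzmb reads per Nkg7 read with TCR alone and 5.91 and 6.04 in the TSLP libraries. In lung the ratio was 2.31 and 2.60 in control libraries 1 and 2, 0.705 in control library 3, and 0.321, 0.327 and 0.386 in the Crlf2-deleted libraries. The ratio was thus highest in the libraries with TSLP and lowest in those with Crlf2 deleted. Ratios of Gzmb to Gzma and to Prf1 did not follow this order. Gzmb reads per Gzma read were 8.42 and 9.54 with TSLP and 7.84 to 18.3 in the Crlf2-deleted libraries. Gzmb reads per Prf1 read were 74.3 and 168 with TCR alone and 70.3 and 67.3 with TSLP. The pair of Gzmb and Nkg7 was chosen after its values were seen, so its ratio is a description with no test. A ratio shows unequal change rather than which gene changed.

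**Figure D2:**
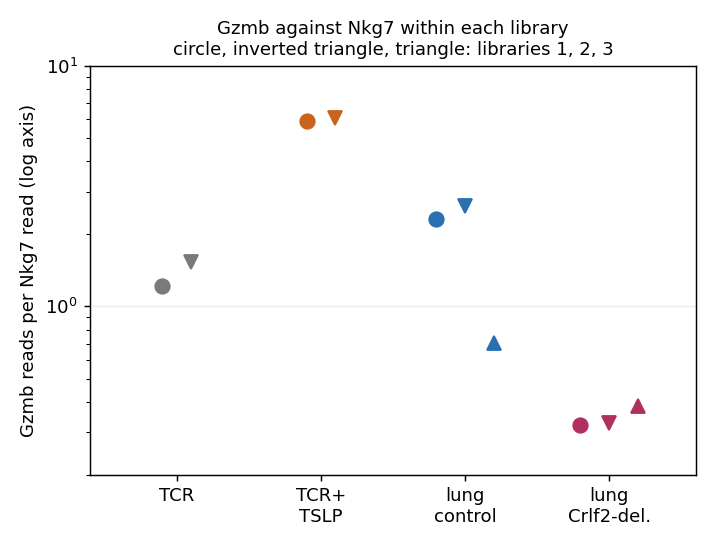
Gzmb reads per Nkg7 read in each of the 10 libraries (log axis), by group, with symbols for libraries 1, 2 and 3. The TSLP libraries lie at 5.91 and 6.04, and the Crlf2-deleted libraries between 0.321 and 0.386; lung control library 3 lies at 0.705, below the other control libraries.

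Among the chemokine genes, Xcl1 fell most. It had 7.32 and 6.98 CPM with TCR alone and 2.86 and 2.29 CPM in the TSLP libraries, a log2 fold change of -1.48 (standard error 0.19, adjusted p = 0.000795). All TSLP values were below all TCR values. The GENCODE span of Xcl1 overlaps Gm20743 on the opposite strand, and whether reads of the pair were told apart by strand was not given in the sources used here. Transcripts of its length (502 bases) had a median of -1.02, and Xcl1 was at -0.63 (standard error 0.17, adjusted p = 0.0248) once the length trend was removed.

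The CC chemokine genes Ccl5, Ccl4 and Ccl3 followed. Ccl5 stood at 15.8 and 13.7 CPM with TCR alone and at 8.24 and 8.54 CPM with TSLP (log2 fold change -0.81, standard error 0.13, adjusted p = 0.00195). Ccl4 stood at 29.8 and 33.7 CPM against 21.9 and 18.7 CPM (log2 fold change -0.65, standard error 0.12, adjusted p = 0.00363). Ccl3 stood at 9.57 and 10.6 CPM against 8.21 and 6.61 CPM (log2 fold change -0.45, standard error 0.16, adjusted p = 0.0481). For each of these genes both TSLP libraries were below both TCR libraries, with the widest gap for Ccl5 on the log2 scale of the fold changes. The drop did not exceed that of transcripts of like length, whose medians were -1.04 for Ccl5, -0.84 for Ccl4 and -0.73 for Ccl3. With the length trend removed, Ccl5 was at 0.02, Ccl4 at 0.04 and Ccl3 at 0.11, and none passed (adjusted p = 0.915, 0.725 and 0.526). The calls were then 4 of 8, Gzmb and Prf1 as higher and Nkg7 and Xcl1 as lower, where the test called 42.2% of all genes, 20.8% as higher and 21.4% as lower. The same 4 were called with the GC trend removed as well (39.9% of all genes). The Ccl3 call was also lost without either TSLP library (adjusted p = 0.0831 without library 1 and 0.477 without library 2) and by DESeq2 (0.133).

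Markers of other lymphocytes in the spleen cultures are given beside these chemokine values. The CD8 T cell markers Cd8a and Cd8b1 summed to 6.59 and 7.57 RPKM with TCR alone and to 5.16 and 5.21 RPKM with TSLP, with neither gene at 0. The 8 NK cell markers summed to 1.66 and 1.99 RPKM against 1.40 and 1.65 RPKM, and Ncr1 did not exceed 0.0464 RPKM in any spleen library. The 4 B and plasma cell markers in the files summed to 13.7 and 14.8 RPKM with TCR alone and to 12.8 and 13 RPKM with TSLP. The part of these lymphocytes in the lower chemokine values was not tested.

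**Figure D3:**
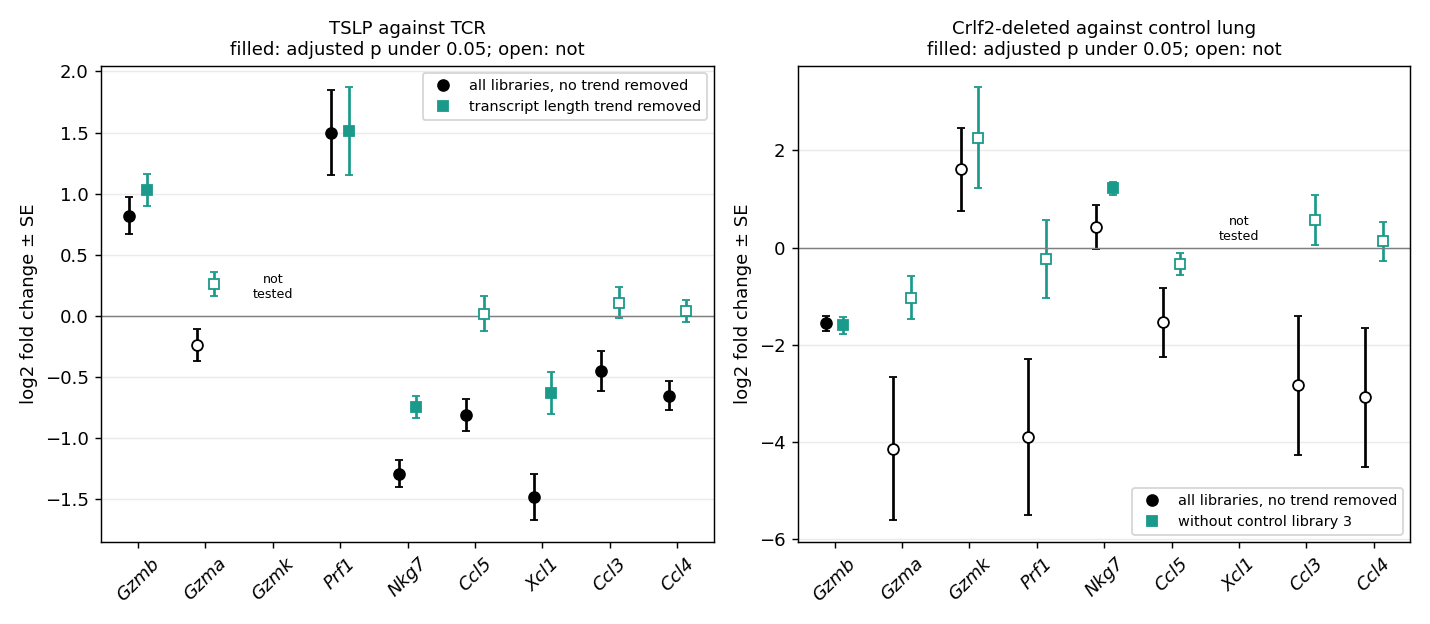
Log2 fold change with its SE for the 9 genes in each comparison (edgeR quasi-likelihood test), filled where the adjusted p is under 0.05; squares show the fit with the transcript length trend removed (left) or without lung control library 3 (right). With the trend removed, Gzmb and Prf1 stay above 0 and Nkg7 and Xcl1 below, while Ccl5, Ccl3 and Ccl4 lie near 0; in lung Gzmb is called in both fits and Nkg7 only without that library.

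The second comparison asks how loss of the TSLP receptor chain changed Tregs of the allergic lung. Gzmb fell, with every Crlf2-deleted library below every control library, and it was the only called gene of the 8 tested (1 of 8, where the test called 1.79% of 12717 genes, 1.01% as lower and 0.771% as higher). Gzma, Prf1 and the chemokine genes were high in control library 3 alone, and none of their differences passed the test. Without that library Nkg7 rose as well, so that the calls were 2 of 8, where 4.11% of genes were called.

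Gzmb stood at 202, 221 and 189 CPM in the control libraries and at 58.0, 67.5 and 82.0 CPM in the Crlf2-deleted libraries. The 3 controls lay within a narrow range, control library 3 included, and well above the deleted libraries. The log2 fold change was -1.56 (standard error 0.16, adjusted p = 0.00762), and the level was 2.94-fold higher in the controls. Without control library 3 it was -1.60 (standard error 0.17, adjusted p = 0.00277). Leaving out single libraries gave values from -1.69 to -1.44, and the call was lost only without Crlf2-deleted library 1 (adjusted p = 0.0719). Granzyme B RNA was thus higher with added TSLP in spleen cultures and lower with Crlf2 deleted in lung; the groups share no libraries.

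Gzma stood at 10.0, 17.1 and 303 CPM in the controls and at 7.40, 7.45 and 4.49 CPM in the deleted libraries. Every deleted library was below every control library, as for Gzmb; ranges stood apart in this direction for 11.6% of all genes and in either direction for 22.0%. The difference rested on control library 3 and did not pass the test (log2 fold change -4.14, standard error 1.47, adjusted p = 0.272). Without that library it was -1.03 (standard error 0.44, adjusted p = 0.248). Prf1 stood at 1.47, 6.84 and 125 CPM in the controls and at 2.43, 4.32 and 2.51 CPM in the deleted libraries, so the groups overlapped. Its log2 fold change was -3.90 (standard error 1.61, adjusted p = 0.329) with control library 3 and -0.24 (standard error 0.80, adjusted p = 0.907) without it.

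Gzmk, with the fewest reads of the 3 granzymes in spleen, had more in lung. It stood at 0.267, 3.42 and 2.65 CPM in the controls and at 3.31, 8.97 and 5.43 CPM in the deleted libraries, from 2, 5 and 28 reads against 34, 112 and 104 reads. The lowest deleted library lay among the controls. The log2 fold change of 1.61 (standard error 0.85, adjusted p = 0.405) did not pass, nor did 2.26 (standard error 1.04, adjusted p = 0.281) without control library 3. Gzmk lies within a GENCODE gene span that overlaps Esm1 on the opposite strand, and strand handling was not given in the sources used here.

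Nkg7 stood at 87.6, 84.8 and 269 CPM in the controls and at 181, 207 and 213 CPM in the deleted libraries. The deleted libraries lay above controls 1 and 2 and below control 3, and the difference did not pass (log2 fold change 0.42, standard error 0.45, adjusted p = 0.71). Without control library 3 Nkg7 rose, with a log2 fold change of 1.22 (standard error 0.14, adjusted p = 0.00354). Beside this, the macrophage and monocyte markers summed to more in each deleted library (at most 229 RPKM) than in control libraries 1 and 2 (45.5 and 53.3 RPKM), and the NK cell markers to 24.2 to 27.3 against 9.28 and 12.8. Tyrobp, which myeloid cells also express, made up most of the NK sum. The other 7 NK cell markers, split off after their values were seen, summed to 0.260 to 0.343 RPKM in the deleted libraries and to 0.278 and 1.04 RPKM in control libraries 1 and 2. Ncr1 was near 0 in the deleted libraries (0.0264 to 0.0746 RPKM). The part of the macrophage RNA in the Nkg7 value was not tested.

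Of the chemokine genes, 3 could be tested in lung and 0 passed (edgeR quasi-likelihood test; 0 also at an unadjusted p under 0.05 and by DESeq2, which gave an adjusted p for Ccl5 only, 0.292). Ccl5 stood at 91.2, 112 and 483 CPM in the controls and at 69.9, 104 and 65.1 CPM in the deleted libraries (log2 fold change -1.54, standard error 0.71, adjusted p = 0.378). Ccl4 stood at 11.1, 24.6 and 419 CPM against 16.4, 23.5 and 15.1 CPM (log2 fold change -3.08, standard error 1.43, adjusted p = 0.381). Ccl3 stood at 3.88, 10.3 and 182 CPM against 8.28, 8.73 and 11.4 CPM (log2 fold change -2.83, standard error 1.43, adjusted p = 0.425). Each of these genes was far higher in control library 3 than in any other lung library, and the remaining 5 libraries overlapped. Without it the log2 fold changes were -0.33 (adjusted p = 0.484) for Ccl5, 0.13 (adjusted p = 0.899) for Ccl4 and 0.57 (adjusted p = 0.607) for Ccl3, so the last pair changed direction. Xcl1 had 3, 0 and 89 reads in the controls and 5, 1 and 6 reads in the deleted libraries and was not tested. A count of 0 in control library 2, with 1439675 gene reads, allows up to 2.08 CPM without further scaling.

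**Figure D4:**
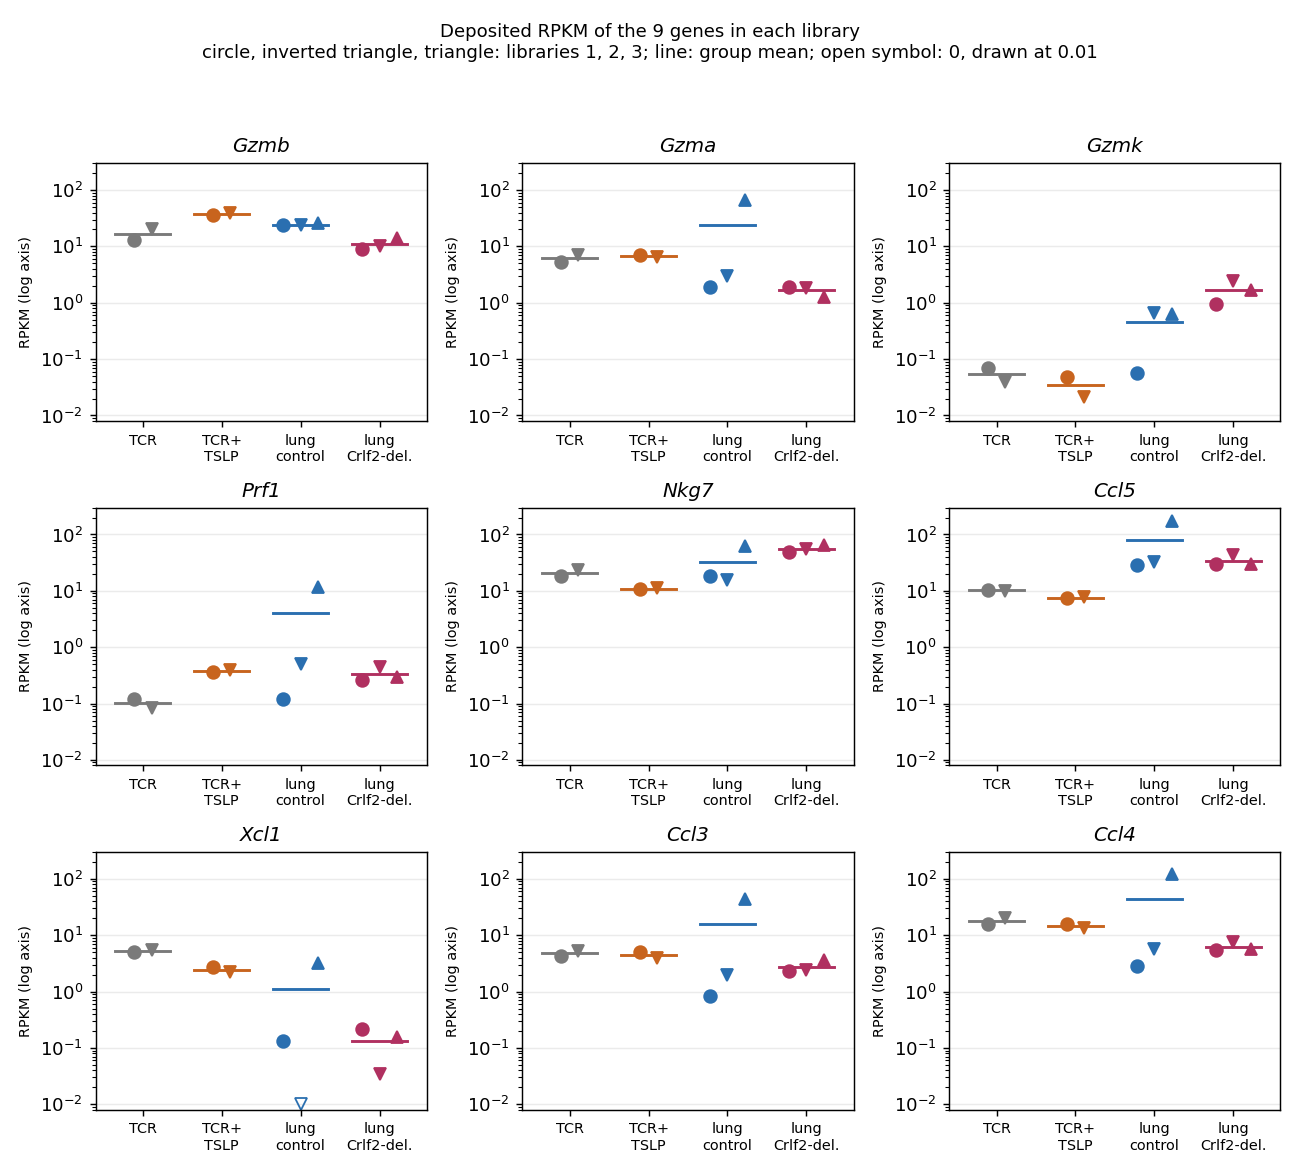
Deposited RPKM (log axis) of the 9 genes in each of the 10 libraries, by group, with the group mean as a line; the open symbol is a value of 0 drawn at 0.01. The 3 lung control values of Gzmb lie between 23.7 and 25.7, whereas Gzma, Prf1, Ccl5, Ccl3 and Ccl4 are highest in lung control library 3, and Xcl1 is highest with TCR alone (5.11 and 5.46) and next in that library (3.23).

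Set side by side by RPKM, the 9 genes had different profiles over the 4 groups. No test was run across spleen and lung, because tissue, culture and genotype change together and the library kit may differ as well. Gzmb averaged 37.6 ± 1.30 RPKM (SD, n = 2) with TSLP, 24.5 ± 1.11 (n = 3) in lung controls, 16.7 ± 5.44 (n = 2) with TCR alone and 11.2 ± 2.68 (n = 3) in Crlf2-deleted lung. The TCR and Crlf2-deleted ranges overlapped, and the other neighbours in the order did not. By CPM scaled over all 10 libraries, lung control came first (190 ± 14.5) and TSLP next (125 ± 4.06), so the top of that order depends on the scale. Nkg7 ranked Crlf2-deleted lung, lung control, TCR and TSLP on both scales, at 56.3 ± 7.40, 32.5 ± 26.9, and 20.8 ± 3.57 RPKM in the first 3 of these and at 10.8 and 11.1 RPKM with TSLP. Its lung ranges overlapped, while TCR and TSLP did not.

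The other granule genes had low group means outside lung control library 3. Gzmk averaged 1.69 ± 0.751 RPKM (n = 3) in Crlf2-deleted lung and did not exceed 0.0685 RPKM in any spleen library. Prf1 did not exceed 0.453 RPKM in all Crlf2-deleted and spleen libraries. Gzma ranged from 5.35 to 7.10 RPKM in spleen and from 1.26 to 2.96 RPKM in the 5 lung libraries other than control 3, which had 66.3 RPKM. This order depends on the scale: by CPM over all 10 libraries, Gzma in lung control 2 (15.8) lay within the spleen range (13.4 to 17.3). Gzmk in lung control 1 lay within the spleen range by RPKM (0.0567) and above it by CPM (0.249 against at most 0.168), from 2 reads.

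Xcl1 and Ccl5 differed by source, in the same order by RPKM and by CPM. Xcl1 stood at 2.19 to 5.46 RPKM in spleen and at 0.217 RPKM or less in the lung libraries other than control 3 (3.23 RPKM). Ccl5 was the reverse, at 7.40 to 10.4 RPKM in spleen and 28.8 to 42.4 RPKM in those 5 lung libraries, with 175 RPKM in control 3. Ccl4 exceeded Ccl3 in each of the 10 libraries by RPKM, with 15.8 and 13.7 RPKM against 4.96 and 4.03 RPKM with TSLP and 122 against 44.3 RPKM in lung control 3. Ccl3, Ccl4 and Ccl5 lie near each other on chromosome 11, at chr11:83647844-83649355, chr11:83662584-83664683 and chr11:83525778-83530518 in the GENCODE annotation of GRCm38.

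Other genes of the cytotoxic pathway were taken from 8 lists and are described by their counts. With TSLP, the regulators of granule formation and exocytosis held more rises than falls: of 17 tested, 10 rose and 3 fell, where 22.7% of all genes were called higher and 23.1% lower. The median log2 fold change was 0.36 against 0.01 over all genes. Rab7, a GTPase of late endosomes, rose from 24.8 ± 0.877 to 60.7 ± 5.98 CPM (SD, n = 2 each; log2 fold change 1.29, standard error 0.11, adjusted p = 0.000162). Lamp2, a lysosomal membrane protein, rose from 14.6 ± 1.14 to 25.8 ± 0.068 CPM. Vamp8, a SNARE of granule fusion, fell from 118 ± 8.43 to 59.8 ± 2.95 CPM, and Coro1a, an actin regulator, fell from 2295 ± 57.0 to 1336 ± 43.4 CPM. With the length trend removed the counts were 8 up and 4 down, where 20.8% and 21.4% of all genes were called.

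Of 10 tested genes for granule cargo, processing and inhibitors, 2 rose and 3 fell with TSLP. The test called 22.7% of all genes as higher and 23.1% as lower. Ctsc, the protease that activates progranzymes, rose from 46.2 ± 6.16 to 71.1 ± 1.21 CPM (log2 fold change 0.62, standard error 0.11, adjusted p = 0.00321). Ctsw, a cathepsin of cytotoxic lymphocytes, fell from 113 ± 8.78 to 44.8 ± 3.86 CPM (log2 fold change -1.34, standard error 0.11, adjusted p = 0.000159). Ctsc thus changed in the direction of Gzmb, and Ctsw in that of Nkg7. Of the 13 other granzymes and granule-locus proteases, 4 could be tested and 1 passed: Gzmc fell from 4.70 ± 0.208 to 2.96 ± 0.309 CPM, a call lost with the length trend removed (adjusted p = 0.387) and without either TSLP library (0.123 and 0.31) or by DESeq2 (0.0941).

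Among 9 death ligands and related effectors, 2 rose and 3 fell, with Cd160, a receptor of cytotoxic lymphocytes, from 20.4 ± 0.452 to 5.42 ± 0.0250 CPM (log2 fold change -1.91, standard error 0.12, adjusted p = 0.000159) and Slamf7 from 26.5 ± 3.22 to 39.8 ± 0.191 CPM. Of 9 tested NK-type receptors only Cd7 passed, and it fell (log2 fold change -1.32, standard error 0.26, adjusted p = 0.00493). Transcription factors of the cytotoxic programme included 9 that rose and 2 that fell of 18 tested. With the length trend removed, 6 rose and 4 fell. Over all genes, the shares called higher and lower were 22.7% and 23.1%, and 20.8% and 21.4% with that trend removed. Bhlhe40 rose from 74.1 ± 6.51 to 151 ± 4.43 CPM, Irf4 from 522 ± 4.59 to 920 ± 27.7 CPM and Tcf7 from 96.6 ± 12.4 to 176 ± 12.7 CPM, while Klf2 fell from 89.3 ± 7.08 to 56.3 ± 1.75 CPM. Irf4 and Bhlhe40 act in T cell activation, and Tcf7 and Klf2 are known from resting and memory cells.

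Of 13 other chemokine genes tested, 4 fell and none rose with TSLP, the median being -0.64. Over all genes, 23.1% were called lower and 22.7% higher. Ccl1 fell from 5.72 ± 0.0354 to 1.77 ± 0.329 CPM (log2 fold change -1.70, standard error 0.22, adjusted p = 0.000752) and remained called at -0.85 with the length trend removed (adjusted p = 0.0135). Ccl27a fell from 3.04 ± 0.465 to 0.897 ± 0.209 CPM. With the trend removed the counts in this list were 1 up and 3 down, with a median of -0.28. The shares of all genes were then 20.8% up and 21.4% down. Of 4 tested receptors for the member chemokines, 1 passed, Xcr1, which fell from 2.31 ± 1.01 to 0.782 ± 0.0288 CPM.

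In lung the same lists held few calls, as all genes did (1.79% of 12717). Klrg1, an inhibitory receptor of effector and tissue Tregs, was the 1 called gene of 9 NK-type receptors and rose from 122 ± 28.5 to 287 ± 59.4 CPM (SD, n = 3 each; log2 fold change 1.25, standard error 0.22, adjusted p = 0.0354). Id2, a regulator of effector lymphocytes, was the 1 called of 17 transcription factors and rose from 333 ± 52.5 to 708 ± 86.2 CPM (log2 fold change 1.09, standard error 0.15, adjusted p = 0.0181). Lgmn, a protease of endosomes, rose within the cargo list (1 of 10) from 188 ± 25.7 to 312 ± 36.5 CPM, at an adjusted p of 0.0499. Cxcl10, an interferon-induced chemokine, was the 1 called of 17 other chemokine genes and fell from 86.4 ± 38.0 to 8.37 ± 2.05 CPM (log2 fold change -3.35, standard error 0.36, adjusted p = 0.00925).

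Without control library 3 the 4 calls held, with log2 fold changes of 1.07 for Klrg1, 1.18 for Id2, 0.76 for Lgmn and -3.61 for Cxcl10 (adjusted p = 0.0185, 0.00629, 0.0376 and 0.00173). They were sensitive to other single libraries. Klrg1 lost its call without control library 1 or 2 or deleted library 1 or 3 (adjusted p = 0.0875, 0.068, 0.19 and 0.19). Id2 lost it without the same libraries (adjusted p = 0.0557, 0.0594, 0.116 and 0.125), and Cxcl10 without deleted library 1 or 3 (0.0864 and 0.0706). Lgmn lost it without any library but control 3, at adjusted p of 0.0812 to 0.256. By edgeR 0 genes passed among 17 regulators of exocytosis, 8 death ligands and 5 receptors of the member chemokines; 1 in each list had an unadjusted p under 0.05, and DESeq2 called 0, 1 and 0. None of the 13 other granzymes and granule-locus proteases reached the filter. Without control library 3, where 4.11% of all genes were called, there were 3 rises each in the cargo and transcription factor lists and 1 each in the exocytosis and NK-type receptor lists. The other chemokine genes then had 1 rise and 1 fall, and their median moved from -0.52 to 1.01.

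**Figure D5:**
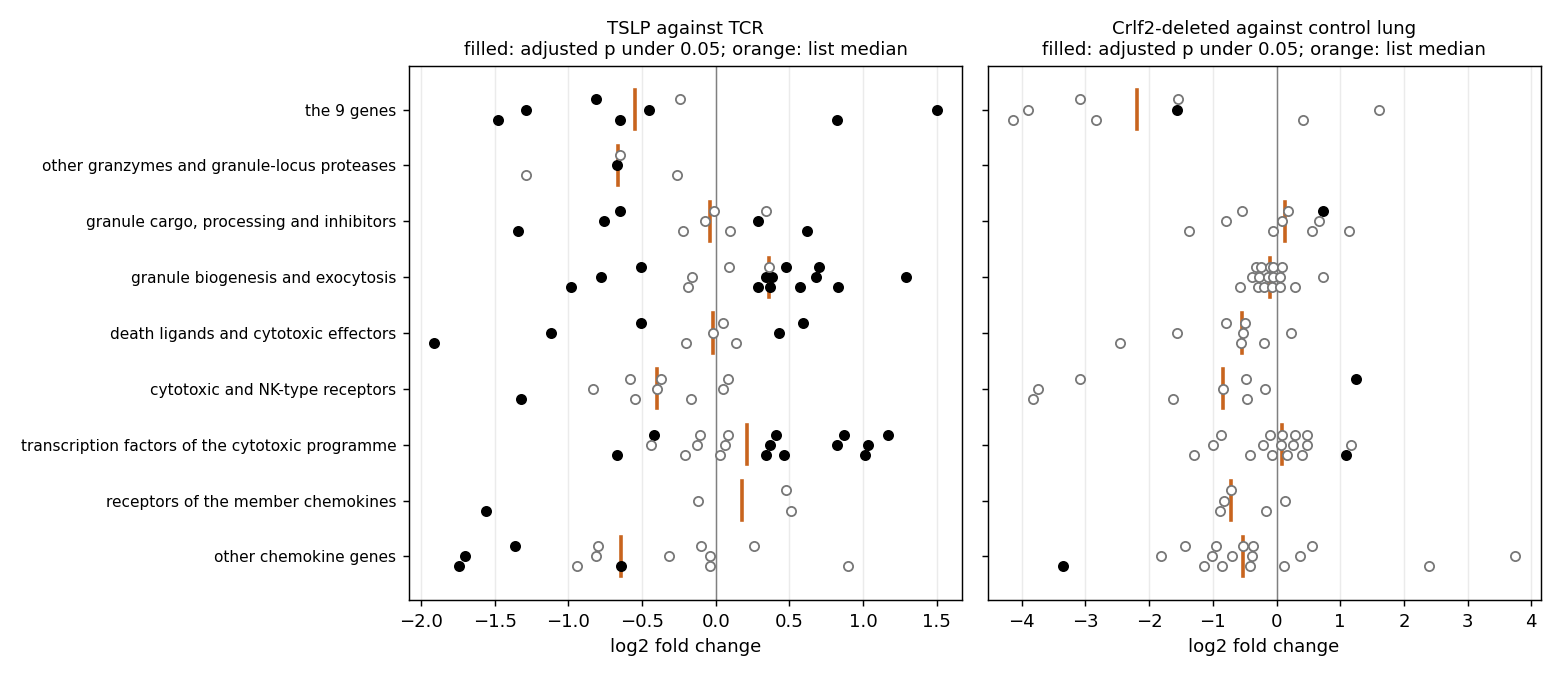
Log2 fold change of each tested gene in the 9-gene set and the 8 pathway lists (edgeR quasi-likelihood test), filled where the adjusted p is under 0.05, with the list median in orange. With TSLP the exocytosis list has 10 rises and 3 falls; in lung the calls are Gzmb, Lgmn, Klrg1, Id2 and Cxcl10.

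Over the 6 lung libraries, control library 3 included, the genes whose log2 CPM followed each member most closely were picked by Pearson's r, as a description. Gzmb was followed by Tpm4 (r = 0.993), Etf1 (0.992) and Actb (0.992), of which the first and last encode parts of the actin cytoskeleton. Nkg7 was followed by Hexa (0.998), Egr1 (0.996) and Sgpl1 (0.994), and Gzmk by Gm3219, Pnrc1 and Bbc3 (0.988 to 0.989). Gzma was followed by Snap23 and the NK receptor gene Klrk1 (both 0.997) and by Psca (0.992). Ccl4 was followed by Plbd1 (0.996) and the macrophage genes Emr1 and Ly86 (both 0.994). Nearest Prf1 were Fgd2 (0.989), Ms4a8a (0.988) and Wdr3 (0.987). Nearest Ccl5 were Nuak2 and Plekha1 (both 0.994) and Cd244 (0.992). Nearest Ccl3 were Ace (0.994), Ccl17 (0.993) and Fes (0.992). Xcl1 was not tested in lung and was left out. Among the members, Prf1 and Ccl4 (0.99), Gzma and Ccl5 (0.98) and Ccl3 and Ccl4 (0.98) were close, while Gzmb and Nkg7 stood at -0.54. For Gzma, Prf1 and the chemokine genes control library 3 lay far above the others, and all values share the 6 libraries and their scaling.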

How the data were processed

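RNA of 10 Treg libraries was read as 50 bp single ends, per the labels' protocols. These name a stranded kit with ribosomal RNA removal for TCR-stimulated cells and SMART-Seq for unstimulated nTregs. No separate kit is named for lung. The deposited files give, per the file headers, counts of whole reads for 31682 RefSeq transcripts. The authors also deposited RPKM, computed from those reads and the length of each transcript. The submitters' processing notes name mm10, edgeR, bedtools 2.25.0, SAMtools 0.1.8, TopHat2 2.2.1 and Bowtie2 2.2.6; a strand rule and a multimapping rule were not given in the sources used here.

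Each symbol was represented by its most-read row on average, and groups came from sample titles and treatments. The quasi-likelihood test of edgeR 4.0.16 (R 4.3.3; two-sided, robust, TMM, filterByExpr at a minimum count of 10) was run on the counts over all genes of a comparison, with Benjamini-Hochberg adjustment and a threshold of 0.05. It gave every adjusted p that names no other tool. The standard error was the log2 fold change divided by the root of F. Alternatives used DESeq2 1.42.0, limma 3.58.1 on log2(RPKM + 1) or log2(RPKM + 0.1), whose fold changes understate low genes, other scaling and filters, offsets from a loess trend (span 0.3) on length, or on length and GC content, a replicate block, and leaving out each library. GC was missing for 691 of 13214 and 675 of 12717 tested genes. The scripts were tested on simulated data.

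The members and lists were chosen with earlier results of these data known. The genes named are the 9 members, Crlf2, Foxp3, up to 4 called genes per list and comparison by p, and 3 genes per member by correlation; marker genes come from the lists of cell types. Replicates differed by more than sampling noise in every group (chi-square per degree of freedom 6.09 to 172), so none was merged. Reads carry no molecular identifiers, so the limit for a count of 0 (3 reads) covers counting error only.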

Additional observations from a re-analysis of the deposited data

How the results depend on the processing

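In the TSLP comparison, 4 members instead of 7 were called with the length trend removed, with the length and GC trends removed, and with the length trend removed and the replicate block. With all 4 groups in 1 fit 1 member and 1356 genes were called. Directions turned for Gzma (0.26 with the length trend removed with or without the block, 0.11 with length and GC, 0.12 and 0.13 by limma with pseudocounts of 1 and 0.1), Ccl5 (0.02, 0.02 and 0.08), Ccl3 (0.11 and 0.11) and Ccl4 (0.04, 0.04 and 0.01). Crlf2 was at 0.08 and Ltb at 0.09 with length and GC trends removed, and Foxp3 at 0.11 and 0.12 by limma. The cause was not tested. Leaving out each library, where the lone one of its group is taken to vary like the other group, called 5 to 8 members and 3212 to 8624 genes; the TSLP libraries gave the low ends (3761 and 3212 genes). Library totals alone moved the median of all genes to 0.24, with 5059 higher and 2000 lower calls against 2999 and 3051, and limma on RPKM to 0.20 and 0.33 (5681 to 1249 and 5606 to 1366); of the members only Gzma turned under these scalings.

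In the lung comparison, the genes called were 227, against 121 with the replicate block, 122 with the block and the length trend removed, 942 by DESeq2, 856 and 804 by limma with pseudocounts of 1 and 0.1, 873 with all 4 groups in 1 fit and 134 with rows summed; 1 member, Gzmb, was called in each. DESeq2 called 6 of the NK-type receptors in lung where edgeR called 1, and gave no adjusted p in lung for Gzma, Ccl3 and Ccl4. The splits were 137 higher and 57 lower with library totals alone (median 0.14) and 762 to 94 and 719 to 85 by limma (0.21 and 0.37), against 98 and 129. Leaving out each library called 0 to 2 members and 4 to 532 genes (33, 22 and 532 without controls 1, 2 and 3, and 4, 124 and 7 without deleted libraries 1, 2 and 3). Over these, Ccl3 ranged from -3.40 to 0.57, Ccl4 from -3.63 to 0.13 and Foxp3 from -0.07 to 0.47, and each turned only without control 3.

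Deviations of libraries with the same replicate number correlated at -0.125 in spleen and at 0.0838, -0.148 and -0.0447 in lung, so no pairing by number was seen. With 2 libraries a group in spleen, the deviations within a group mirror each other, so the spleen value cannot decide whether libraries were paired. With the replicate block, 5817 genes and 6 members were called with TSLP, Ccl3 being lost (adjusted p = 0.0507); in lung Klrg1 (0.106) and Lgmn (0.101) were lost. A block on crossed numbers, chosen after seeing the data, called 7107 genes and 7 members. With 2 libraries a group in spleen and 1439675 gene reads in the shallowest lung library, Gzmk in spleen and Xcl1 in lung were too low to test.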
